A study of Mus musculus with 12 samples.

Results

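Open chromatin of wild-type Th1 cells was compared with that of wild-type Th2 cells, using 4 of the 12 peak lists of an ATAC-seq series on mouse CD4+ T cells (2 libraries per group). ATAC-seq uses the Tn5 transposase to insert sequencing adapters into accessible DNA, so a peak marks a stretch of open chromatin. The Th1 cells were naive CD4+ T cells from spleens of wild-type C57BL/6J mice, isolated by negative selection and cultured for 6 days with 10 ng/mL IL-12 and 1 ng/mL IL-2. The Th2 cells were the same kind of cell cultured for 6 days with 50 ng/mL IL-4 and an antibody that blocks interferon-gamma, at 10 mg/mL as the labels give it. Plate-bound anti-CD3 and soluble anti-CD28 were present in both cultures, and the labels name added IL-2 for the Th1 culture alone. The other lists of the series, used below as a readout, came from Th1 and Th2 cells with a knockout (KO) of a super-enhancer of Ets1 and from naive cells of both genotypes. The titles number the wild-type Th1 and Th2 libraries as 2 biological replicates each, and do not say whether a replicate is 1 mouse or a pool.

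Th1 and Th2 cells are the helper T cell types that act against intracellular microbes and against parasites. IL-12 acts through STAT4 and the T-box factor T-bet (Tbx21) to make Th1 cells, which secrete interferon-gamma (Ifng). IL-4 acts through STAT6 and GATA3 to make Th2 cells, which secrete IL-4, IL-5 and IL-13 from genes that lie together on one chromosome. Both fates start from the same naive cell, and enhancers at the cytokine genes become accessible in the type that expresses them.

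Peaks of the 4 lists that overlapped by at least 1 bp were merged into 69163 regions on chromosomes 1 to 19 and X. A region is called Th1-only where both Th1 lists and neither Th2 list had a peak, Th2-only in the reverse case, and shared where all 4 lists had one. Among 191 genes in 20 lists of T cell and marker genes, 141 had a promoter window in the RefSeq table of GRCm38.p6, 300 bases that run from 250 before to 50 after the transcription start. Of these promoters 68 were shared and 3 lay in Th1-only regions, namely those of Ifng, the cytotoxic granule gene Nkg7 and the chemokine gene Xcl1. A Th2-only region covered 2, those of Pparg, a nuclear receptor that Th2 cells use, and of the cytokine gene Il9. Another 19 promoters had a mixed pattern and 49 had no peak in any of the 4 lists. Over all 32619 promoter windows of the RefSeq table, 10444 were shared, 77 Th1-only and 243 Th2-only, and 20173 had no peak. The sequences below are the 5 listed promoters in Th1-only or Th2-only regions and that of Il12rb2, the signalling chain of the IL-12 receptor. The shared promoter region of Il12rb2 ranked higher in Th1 cells. The promoter of Bcl6, the factor of follicular helper cells, also lay in a shared region that ranked higher in Th1 and is not shown. Each is read 5′ to 3′ on the strand of the gene, with motif matches in capitals.
Ifng, + strand, chr10:118440796-118441095, Th1-only: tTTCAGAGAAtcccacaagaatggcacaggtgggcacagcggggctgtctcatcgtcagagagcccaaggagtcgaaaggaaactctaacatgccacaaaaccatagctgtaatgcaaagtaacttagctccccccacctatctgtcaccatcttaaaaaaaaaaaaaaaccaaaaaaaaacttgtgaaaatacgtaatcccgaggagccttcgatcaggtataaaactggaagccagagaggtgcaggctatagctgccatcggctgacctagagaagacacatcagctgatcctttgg
Nkg7, + strand, chr7:43436888-43437187, Th1-only: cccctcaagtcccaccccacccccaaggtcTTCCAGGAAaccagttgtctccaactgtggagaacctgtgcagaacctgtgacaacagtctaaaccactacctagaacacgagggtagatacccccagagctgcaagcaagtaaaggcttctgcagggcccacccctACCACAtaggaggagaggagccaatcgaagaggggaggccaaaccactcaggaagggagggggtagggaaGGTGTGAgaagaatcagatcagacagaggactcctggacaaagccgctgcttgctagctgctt
Xcl1, - strand, chr1:164935473-164935772, Th1-only: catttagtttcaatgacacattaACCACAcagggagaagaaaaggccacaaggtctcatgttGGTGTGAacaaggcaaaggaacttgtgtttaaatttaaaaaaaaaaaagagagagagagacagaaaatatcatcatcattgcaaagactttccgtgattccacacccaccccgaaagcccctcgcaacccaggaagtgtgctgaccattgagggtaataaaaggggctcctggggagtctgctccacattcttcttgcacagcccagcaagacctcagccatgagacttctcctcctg
Il12rb2, - strand, chr6:67376139-67376438, shared and higher in Th1: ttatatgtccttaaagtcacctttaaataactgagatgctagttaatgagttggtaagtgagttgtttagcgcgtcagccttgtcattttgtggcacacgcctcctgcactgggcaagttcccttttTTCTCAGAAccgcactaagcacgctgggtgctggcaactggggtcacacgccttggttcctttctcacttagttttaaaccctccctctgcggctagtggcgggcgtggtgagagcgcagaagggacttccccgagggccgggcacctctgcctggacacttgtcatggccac
Il9, - strand, chr13:56482208-56482507, Th2-only: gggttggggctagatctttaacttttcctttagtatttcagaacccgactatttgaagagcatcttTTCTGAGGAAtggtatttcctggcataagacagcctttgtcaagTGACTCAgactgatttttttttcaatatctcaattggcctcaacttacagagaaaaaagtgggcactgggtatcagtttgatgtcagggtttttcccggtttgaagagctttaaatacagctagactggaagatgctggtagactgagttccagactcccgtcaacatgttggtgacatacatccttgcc
Pparg, + strand, chr6:115360894-115361193, Th2-only: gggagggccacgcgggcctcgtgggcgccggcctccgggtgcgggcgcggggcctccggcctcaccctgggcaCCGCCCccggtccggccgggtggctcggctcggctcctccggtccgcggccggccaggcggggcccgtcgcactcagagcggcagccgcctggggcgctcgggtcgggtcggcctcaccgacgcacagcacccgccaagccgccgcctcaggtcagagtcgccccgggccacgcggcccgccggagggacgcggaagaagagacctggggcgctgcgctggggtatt

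The capitals in the Ifng and Il12rb2 promoters mark a STAT motif (TTCNNNGAA, N being any base), at positions -249 and -123 from the start. The Nkg7 promoter held a STAT motif, a RUNX motif (TGTGGT, here on the other strand) and a T-box motif (GGTGTGA) at positions -220, -83 and -13. The Xcl1 promoter held the same RUNX and T-box letters, at positions -227 and -188. The Il9 promoter held the STAT spacing bound by STAT6 (TTCNNNNGAA) and an AP-1 motif (TGANTCA), at positions -184 and -140, and the capitals at Pparg mark a GC box (GGGCGG, here on the other strand) at -177. These matches describe the letters of the windows and do not show that a factor binds there. The Xcl1 region overlapped the upstream part of its window alone and was weak, at the 1.70 and 6.41 percentile of the peaks of the 2 Th1 libraries.

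The Th1 lists held 44223 and 34746 peaks and the Th2 lists 54160 and 51600, covering 21.1 and 16.5 Mb in Th1 libraries and 25.3 and 25.2 Mb in Th2 libraries. Median peak width was 407 and 407.5 bp in the Th1 libraries and 405 and 420 bp in the Th2 libraries. The files give no read counts, so the depth is unknown, no interval for counting error can be given and a missing peak means only that none was called. An exact test of 2 libraries against 2 cannot give a p below 0.333, so differences are given as counts of regions beside the disagreement of replicates, with no p per region. A peak also reflects all cells of a culture, so fewer open cells and a less open site cannot be told apart.

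Of the 69163 regions 26083 (37.7%) were shared, 1779 (2.57%) were Th1-only and 8446 (12.2%) were Th2-only. Replicates disagreed more often than that, since 17400 regions had a peak in 1 Th1 library and not in the other, and 19350 in 1 Th2 library and not in the other. The size of the Th2 surplus depended on the length of the lists. With the 34746 highest peaks of every list, 51976 regions remained, of which 3198 were Th1-only and 3855 Th2-only. Of the regions as merged from the full lists, 1182 of the 1779 Th1-only regions (66.4%) and 2937 of the 8446 Th2-only regions (34.8%) also kept their class with those equal lists. The second Th1 library had the shortest list, and without it 5936 regions were Th1-only and 9836 Th2-only. The counts grew when any library was left out, since the rule then asks for fewer lists, to 3602 and 14800 without the first Th1 library, 2860 and 14323 without the first Th2 library and 2829 and 16394 without the second Th2 library.

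**Figure D1:**
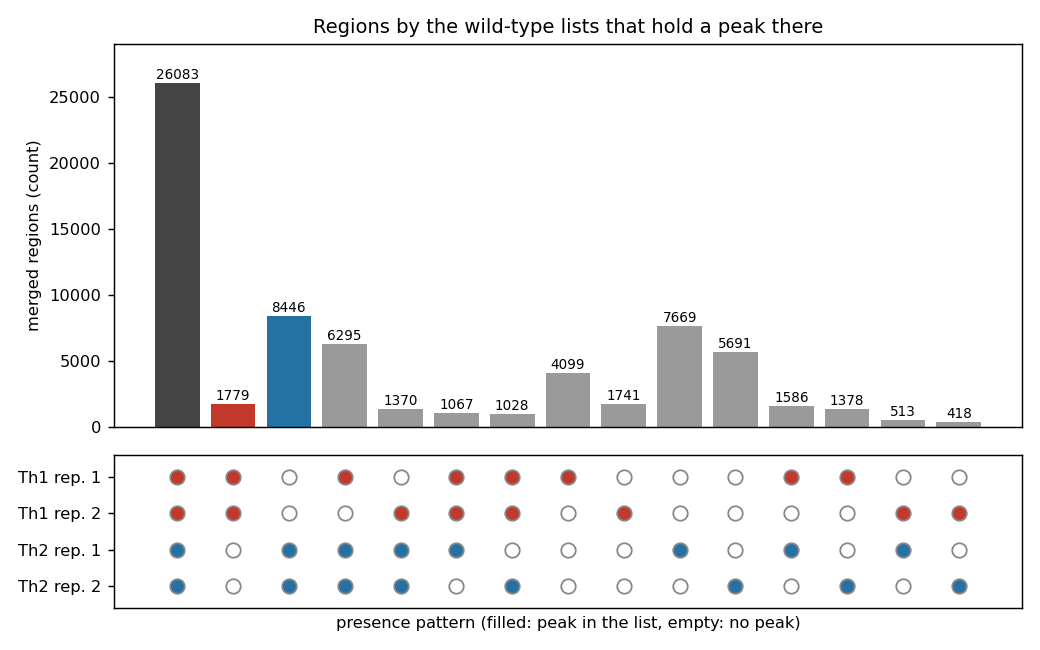
Number of merged regions (vertical axis) for each pattern of presence in the 4 wild-type lists, with filled circles for a peak and empty circles for none. Regions shared by all 4 lists number 26083, Th1-only regions 1779 (red) and Th2-only regions 8446 (blue), and the grey bars are patterns in which replicates disagreed.

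The classes were checked by choosing regions in 1 numbered pair of libraries and reading them in the other. Of 8284 regions with a peak in the first Th1 library and none in the first Th2 library, 33.9% had a peak in the second Th1 library and 29.0% in the second Th2 library. Of 5100 such regions chosen in the second pair, 55.8% had a peak in the first Th1 library and 31.0% in the first Th2 library. Of 17998 regions with a peak in the first Th2 library and none in the first Th1 library, 10.5% had a peak in the second Th1 library and 54.5% in the second Th2 library. Of 21810 chosen in the second pair, 35.2% had a peak in the first Th1 library and 67.6% in the first Th2 library. All 4 readings kept the direction in which the regions were chosen, with the smallest margin where Th1 regions of the first pair were read in the short second Th1 list. Replicates shared more of their regions than libraries of different cell types did, with 63.3% of the union for the 2 Th1 libraries, 68.6% for the 2 Th2 libraries and 50.1% to 58.7% for the 4 Th1 and Th2 pairs.

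Th1-only and Th2-only regions were narrower and weaker than shared ones. Median width was 389 bp for Th1-only, 410.5 bp for Th2-only and 716 bp for shared regions. In the own-list percentile, which places the −log10 q-value of a peak within its library's list from 0 (lowest) to 100 (highest), Th1-only regions had medians of 32.3 and 29.6 in the 2 Th1 libraries. Th2-only regions had medians of 37.0 and 34.8 in the 2 Th2 libraries, and shared regions medians of 69.1 and 60.8 in Th1 and 71.7 and 70.6 in Th2 libraries. A transcription start lay within 1 kb of 5.13% of Th1-only, 4.62% of Th2-only and 30.9% of shared regions, over the chromosomes that have starts in the promoter table. The regions that set the cell types apart thus lay mostly away from the starts in the table, in both directions alike.

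Shared regions were then ranked in each library over the same 26083 regions, which gives a common percentile that can be set side by side between libraries. A region is called higher in Th1 (or in Th2) where both libraries of that type exceeded both of the other by at least 25 points. This held for 747 regions higher in Th1 (2.86%) and 1077 higher in Th2 (4.13%). With no minimum gap the groups did not overlap in 6617 regions higher in Th1 (25.4%) and 5746 higher in Th2 (22.0%), and they overlapped in 13720 (52.6%). With 1 library left out the calls numbered 2253 and 2686 (first Th1 library), 2219 and 2610 (second Th1 library), 1746 and 1923 (first Th2 library) and 1873 and 2118 (second Th2 library). Among the 747 regions higher in Th1, 31.3% lay within 1 kb of a start, near the 30.9% of shared regions, against 4.24% of the 1077 regions higher in Th2. The Th2 shifts were therefore mostly distal, whereas those of Th1 were near starts as often as shared regions in general.

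**Figure D2:**
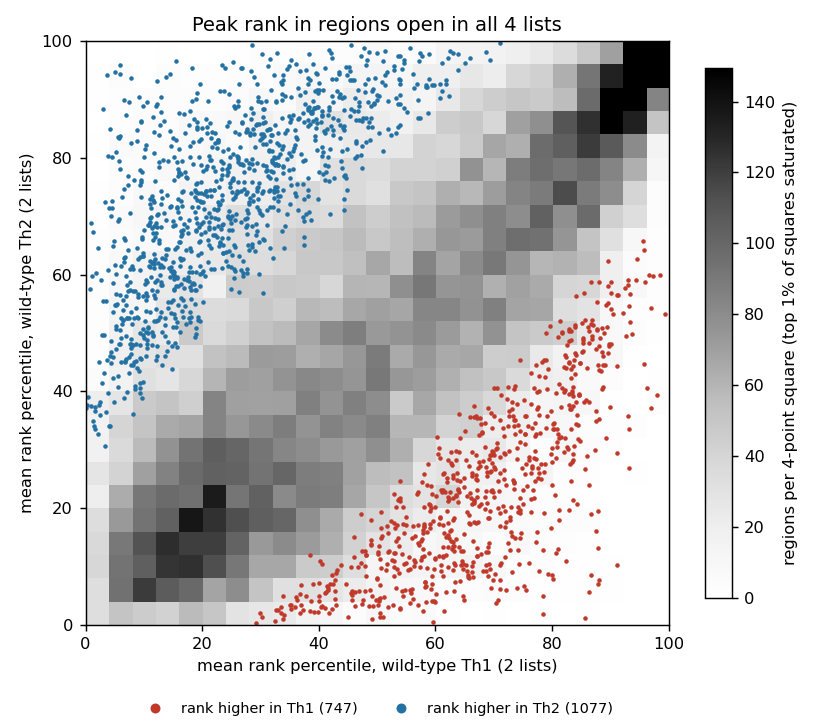
Mean common percentile in the 2 wild-type Th1 lists (horizontal axis) and the 2 Th2 lists (vertical axis) for the 26083 shared regions, as counts per square of 4 by 4 points (grey). Red points are the 747 regions higher in Th1 and blue points the 1077 higher in Th2, and most regions lie along the diagonal.

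The top rank gaps in the Th1 direction lay at Atp10a, Dclk1, Cnr1, Ap2a2, Filip1, Mitf, Pik3cb, Cd44, Eci2 and Dscam, each named for the nearest protein-coding gene. The region in Atp10a, which encodes a membrane lipid flippase, stood at common percentiles of 86.6 and 86.0 in Th1 libraries and 5.79 and 5.32 in Th2 libraries (chr7:58722249-58722692). The region in Pik3cb, a phosphoinositide 3-kinase subunit, stood at 80.9 and 92.6 in Th1 libraries and 10.9 and 6.15 in Th2 libraries. Cd44 encodes the adhesion receptor of activated and memory T cells, and its region (chr2:102812684-102813297) stood at 93.3 and 82.5 in Th1 libraries and 13.3 and 12.9 in Th2 libraries. The order of the wild-type libraries follows from the choice of the largest gaps. In own-list percentiles the KO libraries kept that order in all 3 regions, as with Cd44 at 94.2 and 98.2 in KO Th1 and 52.5 and 44.5 in KO Th2. Among the 10 the KO groups overlapped only at Cnr1, at 67.9 and 36.7 in KO Th1 and 57.6 and 16.0 in KO Th2.

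In the Th2 direction the largest gaps lay at Vapb, Cited2, Rapgef2, N4bp2l2, Setbp1, Ppfibp1, Map2k6, Edem3, Srprb and Ppp2r5a. The region in Vapb, an adaptor of the endoplasmic reticulum membrane (chr2:173762728-173763397), stood at common percentiles of 5.08 and 2.38 in Th1 libraries and 94.4 and 94.2 in Th2 libraries. The region nearest to Cited2, a transcriptional co-regulator 174 kb away, stood at 7.43 and 4.51 in Th1 libraries and 95.1 and 93.7 in Th2 libraries. The region in Map2k6, a kinase upstream of p38, stood at 9.997 and 18.98 in Th1 libraries and 94.7 and 94.1 in Th2 libraries. Of these 10 regions 8 had no peak in either naive wild-type list. In own-list percentiles the KO groups overlapped only at Srprb, at 39.1 and 75.2 in KO Th1 and 91.2 and 71.6 in KO Th2. The region nearest to Cited2 stood on that scale at 22.9 and 8.85 in wild-type Th1 libraries. There the KO Th1 libraries had 79.7 and 73.6 and the KO Th2 libraries 88.2 and 95.2.

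The wild-type classes were read in libraries that had no part in choosing them. Of the 1779 Th1-only regions 60.0% and 63.4% had a peak in the 2 KO Th1 libraries, against 26.4% and 23.1% in the 2 KO Th2 libraries. Of the 8446 Th2-only regions 32.7% and 27.0% had a peak in KO Th1 libraries, against 79.5% and 73.1% in KO Th2 libraries. Libraries of the matching cell type thus held each class more often than the other type did, and the 2 libraries of a group differed by less than the types. Over all 69163 regions the shares were 58.5% and 58.0% in KO Th1 libraries and 71.2% and 67.7% in KO Th2 libraries. For Th1-only regions the share in KO Th1 libraries was therefore near that of all regions, and the contrast lay in the low share in KO Th2 libraries. For Th2-only regions the share in KO Th2 libraries was likewise only somewhat above that of all regions. The larger contrast there lay in the low share in KO Th1 libraries. The KO Th2 libraries are titled Th1, while their source name gives Th2 cells. They were grouped by source name, and the side on which they fell here was not used for that. In the KO lists alone 1769 of the regions met the Th1-only rule and 6158 the Th2-only rule, and 486 and 2725 did so in both genotypes.

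The rank shifts were found in KO cells as well, in ranks taken over the 23081 regions with a peak in all 8 Th1 and Th2 lists of both genotypes. Of the 647 regions higher in wild-type Th1 that could be read, 376 (58.1%) had both KO Th1 libraries above both KO Th2 libraries and 18 (2.78%) the reverse. Of the 960 regions higher in wild-type Th2, 27 (2.81%) had both KO Th1 libraries above both KO Th2 libraries and 621 (64.7%) the reverse. Over all 23081 regions these shares were 24.8% and 22.7%. The median difference of Th1 minus Th2 percentiles was smaller in KO cells than in the wild-type libraries that had chosen the regions, at 19.99 against 42.7 points for the Th1 direction and -25.0 against -47.0 points for the Th2 direction.

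Naive wild-type cells, the cells from which both cultures started, held the classes unequally. A peak was present in the 2 naive wild-type libraries in 35.9% and 37.1% of Th1-only regions, 21.0% and 22.2% of Th2-only regions and 67.3% and 68.2% of shared regions. These 2 libraries are technical replicates of 1 biological sample. No peak was found in either of them in 1074 of 1779 Th1-only regions (60.4%) and 6432 of 8446 Th2-only regions (76.2%). Among shared regions, those higher in Th1 had a naive peak in 66.5% and 67.9% of cases and those higher in Th2 in 28.7% and 29.6%. With equal lists the naive share was 35.1% of Th1-only and 10.8% of Th2-only regions.

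**Figure D3:**
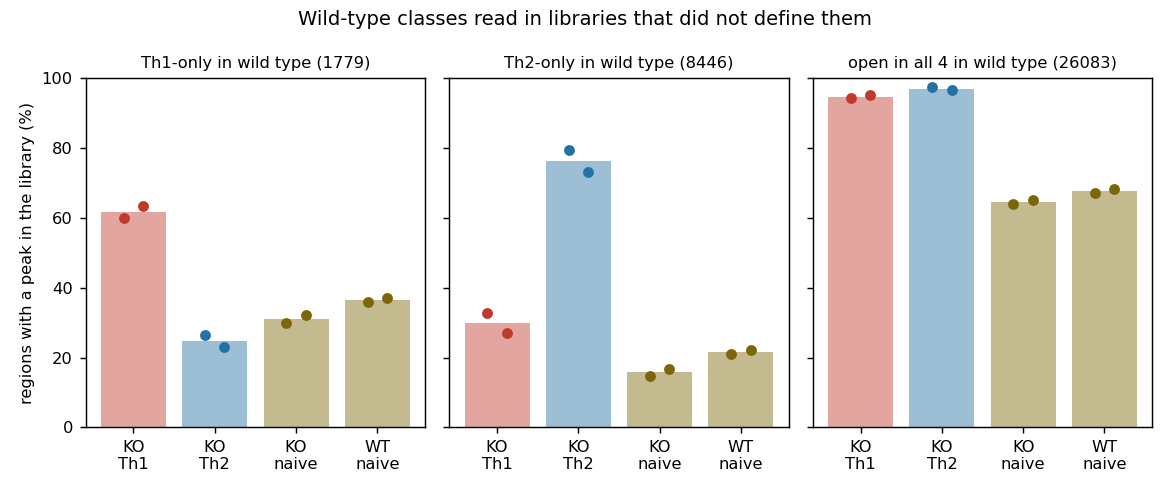
Percent of Th1-only, Th2-only and shared regions of wild-type cells (panels) that had a peak in each library of KO Th1, KO Th2, KO naive and wild-type (WT) naive cells; points are libraries and bars their means. KO Th1 libraries hold 60.0% and 63.4% of Th1-only regions and KO Th2 libraries 79.5% and 73.1% of Th2-only regions.

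Among the gene lists, Th1 cytokines and effectors leaned most to Th1. Within a gene's body and 20 kb on each side, 7 of 44 regions of this list were Th1-only (15.9%, against 2.57% of all regions) and 1 was Th2-only (2.27%, against 12.2%). The Th1-only regions lay at 6 of the 10 genes, namely Ifng, Ccl3, Ccl4, Fasl, Gzmb and Xcl1. Ccl3 and Ccl4, neighbouring chemokine genes, share their 2. The Th2-only region lay at Csf2, which encodes the growth factor GM-CSF and lies on the chromosome of the Th2 cytokines. The counts were 10 and 0 of 39 regions with equal lists, against 6.15% and 7.42% of all regions.

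Th2 cytokines leaned to Th2, with no Th1-only and 10 Th2-only regions of 52 (19.2%). They lay at 7 of the 10 entries, with 3 at Il5, 2 each at Rad50, Il10 and Il9, and 1 each at Il4, Il3 and Areg, where the 2 at Rad50, the gene that houses the locus control region, are shared with Il5. With equal lists 1 of 40 regions was Th1-only and 5 were Th2-only (12.5%, against 7.42% of all regions). Shared regions of the list had a median difference of -9.00 common percentile points, Th1 minus Th2, against +1.06 over all shared regions. None of the 17 was called higher in Th2, and 1, at Il10, was higher in Th1.

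**Figure D4:**
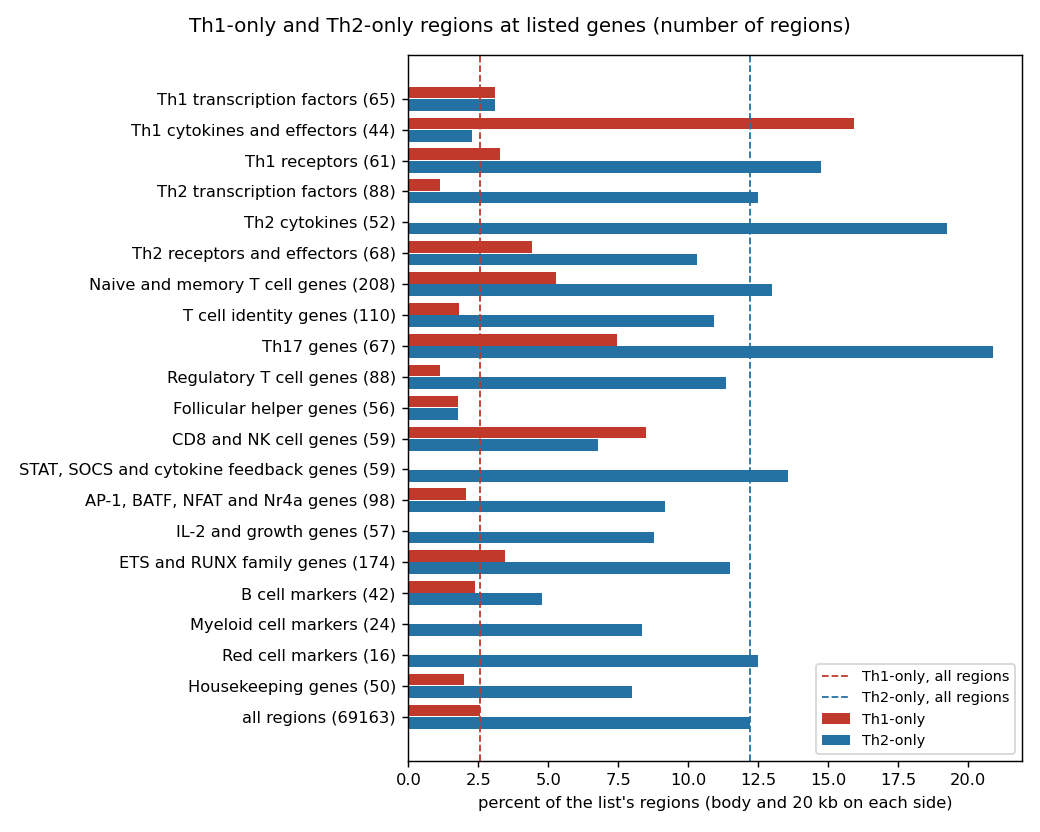
Percent of the regions of each gene list (body and 20 kb on each side, number of regions in brackets) that were Th1-only (red, upper bar) or Th2-only (blue, lower bar), with the shares over all regions as dashed lines. Th1 cytokines and effectors have 15.9% Th1-only regions and Th2 cytokines none, while 19.2% of the regions of Th2 cytokines are Th2-only.

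At Ifng, the gene of interferon-gamma, the window of 20 kb held peaks in 5 and 4 regions in Th1 libraries and in 2 and 1 in Th2 libraries. The promoter region (chr10:118440619-118441327) was Th1-only, at own-list percentiles of 68.9 and 52.0 in Th1 libraries with no peak in Th2 libraries. It also had a peak in the naive libraries, at 30.5 and 36.4 in wild-type and 9.52 and 25.5 in KO cells. A second Th1-only region lay 5.5 kb before the start, at 62.6 and 27.7, and had a peak in 1 KO Th1 library, at 11.9. Within 100 kb on each side, a window chosen after the data were seen, the Th1 libraries had peaks in 19 and 19 of 23 regions and the Th2 libraries in 9 and 6. In that window 6 regions were Th1-only and none was Th2-only. All 6 lacked a peak in both Th2 libraries by the rule that defines the class.

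The region 33.9 kb before the Ifng start (chr10:118406853-118407353) ranked first of all 1779 Th1-only regions by the lower of its 2 percentiles, at 92.0 and 94.1 in Th1 libraries. KO Th1 libraries had it at 93.6 and 93.7, KO Th2 libraries had no peak, and naive wild-type libraries had it at 57.2 and 59.4. Of the 6 shared regions in this window 2 were called higher in Th1 and in 3 the groups overlapped. The region at -21.8 kb from the start stood at common percentiles of 60.7 and 65.1 in Th1 libraries and 14.5 and 11.5 in Th2 libraries, and the one 29.7 kb after it at 76.9 and 85.6 in Th1 libraries and 6.08 and 33.2 in Th2 libraries. At the first of these the KO groups overlapped, with own-list percentiles of 35.2 and 60.9 in KO Th1 libraries and 40.1 and 57.5 in KO Th2 libraries. KO Th1 libraries had peaks in 16 and 17 regions of the 23 and KO Th2 libraries in 10 and 8.

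At the Th2 cytokine locus on chromosome 11 the Th2 libraries had peaks in more regions, as they did over all regions. The shares of all regions with a peak were 62.6% and 49.2% in Th1 libraries and 76.7% and 73.3% in Th2 libraries. Il5, the gene of the cytokine that drives eosinophils, had peaks in 4 and 2 regions in Th1 libraries and in 8 and 8 in Th2 libraries. Its 3 Th2-only regions lay 7.0 kb and 0.8 kb before the start and 11.7 kb after it. The middle one (chr11:53719761-53720251) stood at own-list percentiles of 72.1 and 33.6 in Th2 libraries, and at 51.3 and 20.7 in KO Th2 libraries, with no peak in the wild-type Th1, KO Th1 or naive wild-type libraries. Il4 had peaks in 4 and 2 regions in Th1 libraries and in 6 and 5 in Th2 libraries.

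The Th2-only region in the Il4 window (chr11:53592433-53592972) lay 26.0 kb after the Il4 start, where it overlaps the body of another gene, Kif3a. It stood at 72.1 and 59.0 in Th2 libraries with no peak in Th1 libraries, and 1 KO Th1 library and both KO Th2 libraries had a peak there. A shared region 12.9 kb after the Il4 start (chr11:53605225-53606279) stood at own-list percentiles of 35.6 and 35.6 in Th1 libraries and 79.1 and 68.5 in Th2 libraries. Its gap of 22.6 common percentile points in the Th2 direction fell short of the 25 points set for a call. Il13, the gene of a cytokine of mucus and parasite defence, had peaks in 3 and 2 regions in Th1 libraries and in 5 and 3 in Th2 libraries, with none of its 5 regions in either class. With 100 kb on each side of Il13, a span that holds Il4, Rad50 and Il5, peaks lay in 13 and 8 of 24 regions in Th1 libraries and in 19 and 18 in Th2 libraries. Of the 24, 1 was Th1-only and 4 were Th2-only, against 2.57% and 12.2% of all regions. With equal lists 1 and 2 of them kept their class. KO libraries had peaks in 14 and 12 (Th1) and 17 and 17 (Th2) of the 24.

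**Figure D5:**
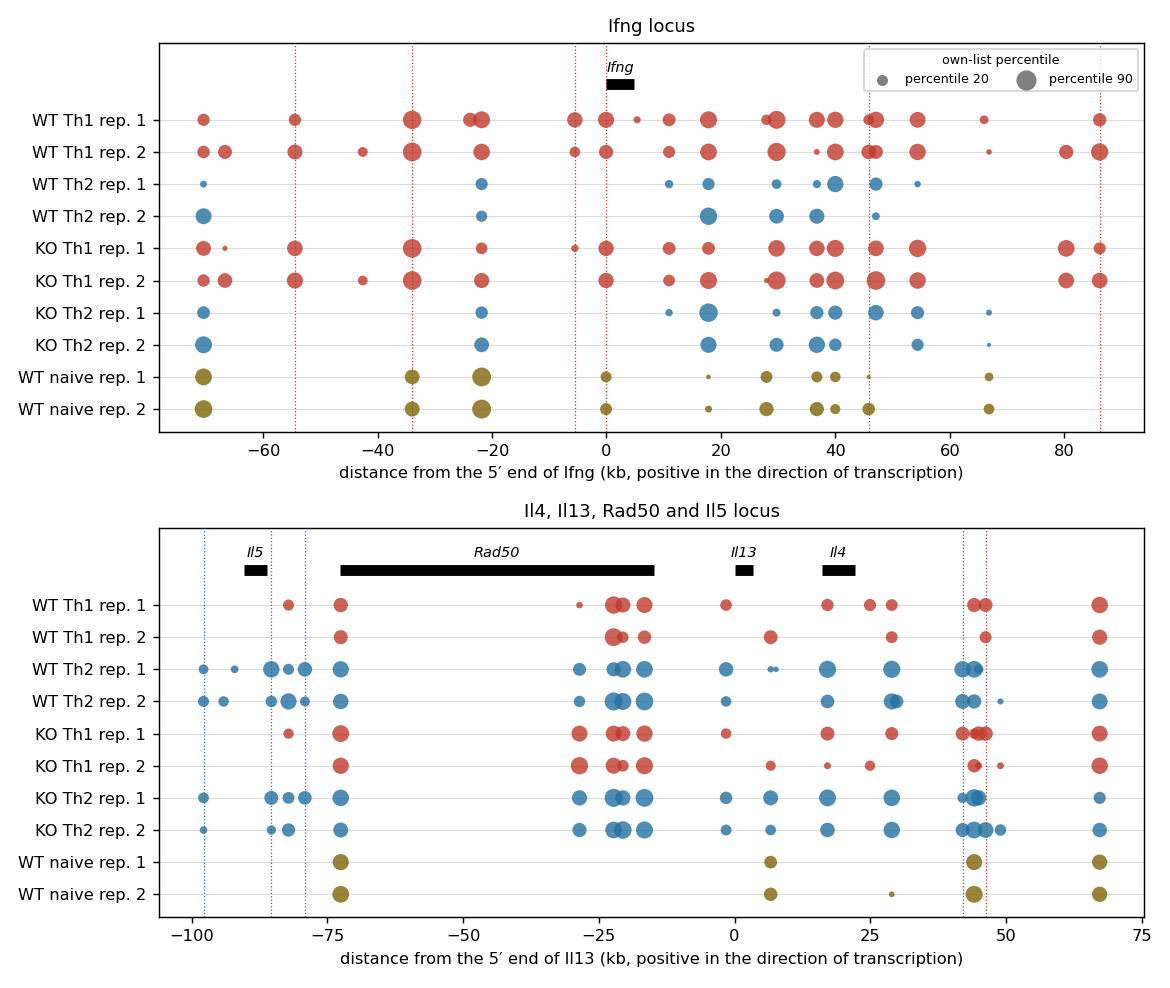
Peaks of 10 libraries (rows) at the Ifng locus and at the locus of Il4, Il13, Rad50 and Il5, by distance from the 5′ end of Ifng or Il13 in kb; circle size gives the own-list percentile, black bars are genes, and dotted lines mark Th1-only (red) and Th2-only (blue) regions. The Th1 libraries have peaks in 19 and 19 regions around Ifng and the Th2 libraries in 9 and 6, and around Il13 in 13 and 8 against 19 and 18.

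The genes of the master transcription factors had no Th1-only or Th2-only region within 20 kb. Tbx21, which encodes T-bet, had peaks in 5 and 3 regions in Th1 libraries and in 3 and 3 in Th2 libraries, with no Th1-only or Th2-only region even within 100 kb. Its region 11.9 kb before the start (chr11:97126733-97127788) ranked 11.01 common percentile points higher in Th1 libraries, and the peak at its start was called in 1 Th1 library, at percentile 12.1. Gata3, which encodes GATA3, had peaks in 4 and 4 regions in Th1 libraries and in 5 and 6 in Th2 libraries, with 2 weak Th2-only regions within 100 kb. The region 1.5 kb before the Gata3 start stood at own-list percentiles of 66.6 and 58.6 in Th1 libraries and 80.6 and 81.2 in Th2 libraries, a gap of 16.6 common points in the Th2 direction. Neither gap reached the 25 points set for a call. Within 100 kb of Gata3 a shared region (chr2:9764322-9764781) was called higher in Th2, at 17.00 and 19.2 in Th1 libraries and 62.2 and 49.5 in Th2 libraries. In own-list percentiles the wild-type groups overlapped at the Tbx21 region, at 80.9 and 72.6 in Th1 libraries and 64.6 and 72.8 in Th2 libraries. On that scale it stood at 58.4 and 70.6 in KO Th1 libraries and 82.8 and 78.4 in KO Th2 libraries, whose lists are longer. At the Gata3 region the KO groups overlapped in own-list percentiles.

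The Th1 factors as a list had 2 Th1-only and 2 Th2-only regions of 65 (3.08% each), and 5 Th1-only (9.26%) and no Th2-only of 54 with equal lists. Of their 28 shared regions 3 (10.7%, against 2.86% of all) were higher in Th1 and 1 (3.57%, against 4.13%) in Th2, and the median difference was 12.6 common points in the Th1 direction. Stat4, which encodes the signal transducer of IL-12, had peaks in 15 and 13 of its 23 regions in Th1 libraries and in 14 and 16 in Th2 libraries. Its region 32.6 kb after the start (chr1:52019293-52020158) stood at common percentiles of 63.3 and 57.9 in Th1 libraries and 32.8 and 27.6 in Th2 libraries, just past the 25 points set for a call. Eomes, which encodes a T-box factor related to T-bet, had a Th1-only region 0.8 kb after its start at own-list percentiles of 10.7 and 14.9, also found in KO Th1 libraries at 46.9 and 30.0 and in no KO Th2 library. Runx3, a partner of T-bet, had peaks in 9 and 4 regions in Th1 libraries and in 5 and 6 in Th2 libraries, and Hlx, a homeobox factor of Th1 cells, in 2 and 3 in Th1 libraries and in 1 and 4 in Th2 libraries. In both genes the groups overlapped.

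Among Th1 receptors the difference at Il12rb2 lay in rank at the promoter. That shared region (chr6:67375836-67376486), whose sequence is shown above, stood at common percentiles of 61.6 and 52.5 in Th1 libraries and 15.7 and 18.5 in Th2 libraries. Inside the gene, 3 regions between 40.4 and 57.7 kb after the start were Th2-only, so presence and rank pointed to different cell types at the same gene. Cxcr3, the chemokine receptor of Th1 cells, had 1 Th1-only region 3.4 kb before its start, at own-list percentiles of 26.5 and 36.5. As a list, the Th1 receptors had 2 Th1-only (3.28%) and 9 Th2-only regions (14.8%) of 61, and 6 (10.7%) and 7 (12.5%) of 56 with equal lists, against 6.15% and 7.42% of all regions.

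Th2 transcription factors had 1 Th1-only (1.14%) and 11 Th2-only regions (12.5%) of 88, near the shares of all regions, and Pparg held 5 of the 11. With equal lists 2 of 63 (3.17%) were Th1-only and 9 (14.3%) Th2-only, against 6.15% and 7.42% of all regions. Stat6, the signal transducer of IL-4, had peaks in 7 and 6 of its 10 regions in Th1 libraries and in 8 and 8 in Th2 libraries, with none in either class. Pparg had peaks in 4 and 4 regions in Th1 libraries and in 12 and 10 in Th2 libraries, and in none of them in the 2 naive wild-type libraries. Its region 77.3 kb after the start (chr6:115437919-115438409) stood at own-list percentiles of 79.3 and 91.2 in Th2 libraries with no peak in Th1 libraries. KO Th1 libraries had it at 62.2 in 1 library and not in the other, and KO Th2 libraries at 88.5 and 82.8. Junb, an AP-1 factor, had 2 Th2-only regions, and a shared region 7.0 kb before its start that stood at common percentiles of 68.0 and 83.8 in Th1 libraries and 31.7 and 36.3 in Th2 libraries. Irf4 had 2 Th2-only regions and 1 shared region higher in Th2 (chr13:30777705-30778208), at 1.18 and 6.58 in Th1 libraries and 37.9 and 41.4 in Th2 libraries.

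Th2 receptors and effectors had 3 Th1-only (4.41%) and 7 Th2-only regions (10.3%) of 68, and 6 of each among 56 with equal lists. Il1rl1, which encodes the IL-33 receptor ST2 of Th2 cells, held regions of both directions. Its Th2-only regions lay 5.0 kb before the start and 20.7 and 41.7 kb after it. The first (chr1:40399674-40400021) stood at own-list percentiles of 74.3 and 46.0 in Th2 libraries and 47.2 and 50.5 in KO Th2 libraries, with no peak in the Th1 or naive wild-type libraries. A Th1-only region lay in the part of the Il1rl1 window that is shared with Il18r1, at 64.5 and 10.2 in Th1 libraries. A shared region 18.5 kb before the Il1rl1 start (chr1:40386025-40386780) went the other way, at common percentiles of 62.4 and 51.5 in Th1 libraries and 2.18 and 4.53 in Th2 libraries. In KO cells it stood at own-list percentiles of 77.9 and 92.4 in Th1 libraries and 11.3 and 35.2 in Th2 libraries. Il4ra, the receptor chain for IL-4, had 3 Th2-only regions with own-list percentiles of 5.37 to 24.9 in Th2 libraries, of which 1 was found in a KO Th2 library. Ccr4, a chemokine receptor of Th2 cells, had peaks in 11 and 6 regions in Th1 libraries and in 8 and 9 in Th2 libraries, with no region of either class.

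Both directions were also found at Il10, whose product restrains inflammation and is made by either cell type. A shared region in its window (chr1:131022570-131023134) stood at common percentiles of 80.1 and 79.8 in Th1 libraries and 0.72 and 16.2 in Th2 libraries. In KO cells the groups overlapped at this Il10 region, at own-list percentiles of 59.98 and 75.1 in Th1 libraries and 65.6 and 25.4 in Th2 libraries. Another region (chr1:131029182-131029782), was Th2-only at own-list percentiles of 29.8 and 83.4 in Th2 libraries and 84.8 and 79.9 in KO Th2 libraries. Il9, the gene of a mast cell growth factor, had its promoter region at 23.3 and 56.7 in Th2 libraries and a second Th2-only region 6.1 kb before the start at 75.7 and 61.7. The first was also found in 1 KO Th1 library and the second in both.

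Genes of other helper cell types did not all follow the Th2 surplus. The Th17 list had 5 Th1-only regions of 67 (7.46%) and 14 Th2-only (20.9%). Il23r, which encodes the receptor for IL-23 and lies next to Il12rb2, held 3 of the 5 and no Th2-only region, and peaks lay in 11 and 7 of its 12 regions in Th1 libraries and in 5 and 5 in Th2 libraries. The one 16.1 kb after the Il23r start (chr6:67475509-67476028) stood at own-list percentiles of 83.9 and 85.7 in Th1 libraries and 88.0 and 87.8 in KO Th1 libraries, with no peak in any Th2 or naive library. Rora, which encodes a nuclear receptor, had 2 Th1-only and 5 Th2-only regions, and Il17f and Il1r1 had 3 Th2-only regions each. With equal lists the Th17 counts were 8 and 5 of 55 regions, so the Th2 surplus of this list did not hold. The follicular helper list had 1 region of each class out of 56 (1.79%), and 6 Th1-only and 1 Th2-only of 45 with equal lists.

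Naive and memory T cell genes had 11 Th1-only (5.29%) and 27 Th2-only regions (12.98%) of 208, and 17 and 10 of 168 with equal lists. Lef1, a TCF-family factor of naive cells, had 1 Th1-only and 5 Th2-only regions, and Foxp1, a factor of T cell quiescence, 3 and 10. T cell identity genes had 2 and 12 of 110 (10.9% Th2-only), and 2 and 2 of 83 with equal lists. Regulatory T cell genes had 1 and 10 of 88, STAT, SOCS and cytokine feedback genes 0 and 8 of 59. AP-1, BATF, NFAT and Nr4a genes had 2 and 9 of 98, and IL-2 and growth genes 0 and 5 of 57. In that order the Th2-only shares were 11.4%, 13.6%, 9.18% and 8.77%, near or below the 12.2% of all regions. ETS and RUNX family genes had 6 and 20 of 174 (3.45% and 11.5%), near the shares of all regions, with Fli1 at 1 and 4 and 3 shared regions higher in Th2. Housekeeping genes had 1 and 4 of 50 (8% Th2-only). With equal lists the 2 classes were close in number, as they were over all regions (6.15% and 7.42%). The counts were 4 and 4 of 71 (regulatory), 0 and 0 of 42 (STAT and SOCS) and 8 and 7 of 78 (AP-1). They were 3 and 2 of 46 (IL-2 and growth), 12 and 11 of 146 (ETS and RUNX) and 1 and 1 of 43 (housekeeping).

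Markers of other cell types were examined for the same windows. CD8 and NK cell genes had 5 Th1-only (8.47%) and 4 Th2-only regions (6.78%) of 59, and 8 and 2 of 49 with equal lists. Nkg7 had its promoter region at own-list percentiles of 65.8 and 59.9 in Th1 libraries, and Klrd1, an NK cell receptor gene, had 2 regions of each class and a shared region (chr6:129583048-129583477) at common percentiles of 61.7 and 62.0 in Th1 libraries and 13.2 and 10.7 in Th2 libraries. Several genes of this list are also used by Th1 cells. Cd8a had 2 regions and Cd8b1 3, with none Th1-only, and Ncr1 had none. At the Klrd1 shared region the KO groups overlapped. Peaks of the CD8 and NK list numbered 45 and 38 regions in Th1 libraries and 45 and 38 in Th2 libraries. B cell markers had 1 Th1-only and 2 Th2-only regions of 42, myeloid markers 0 and 2 of 24 and red cell markers 0 and 2 of 16. The lists had peaks in 32 and 25 (B), 17 and 15 (myeloid) and 8 and 9 (red cell) regions in Th1 libraries, and in 30 and 33, 18 and 18, and 14 and 12 in Th2 libraries. Ms4a1, which defines B cells, and Lyz2, which defines myeloid cells, had no peak in the 4 lists. The part of such cells in the results was not tested.

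Over the 16915 protein-coding genes with a region, 1648 had a Th1-only region, 6104 a Th2-only region and 785 both. St8sia1, which encodes a ganglioside synthase, had most Th1-only regions, 5 of 27, with 1 Th2-only. Sh3rf1 and Fggy followed with 4 each, then Il23r, Cemip2, Car5b, Sec24b, Sema7a, Xdh and Ppp3r1 with 3 each, and Ppp3r1 encodes a calcineurin subunit. Other genes with 3, such as Foxp1, Runx2 and Nfia, had a lower share of their regions in the class. Of the genes named before these, Fggy also had 3 Th2-only regions, Sh3rf1 and Sema7a 2 each, and Car5b and Sec24b 1 each. With equal lists St8sia1, Fggy, Il23r and Car5b kept 3 Th1-only regions and the rest 2. In KO cells both Th1 libraries had peaks in more regions than both Th2 libraries at Il23r, Xdh and Sema7a alone. Sh3rf1 went the other way, with 11 and 15 in KO Th1 and 21 and 19 in KO Th2. Inpp4b, a phosphoinositide phosphatase gene, had most Th2-only regions, 16 of 86, and no Th1-only region, with peaks in 43 and 27 regions in Th1 libraries and in 64 and 65 in Th2 libraries.

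Tnr, an extracellular matrix gene best known in the nervous system, had 14 Th2-only regions of 28, with peaks in 9 and 8 regions in Th1 libraries and in 25 and 27 in Th2 libraries. Adamtsl3, a secreted matrix protein gene, had 11 of 17, with peaks in 4 and 3 regions in Th1 libraries, in 15 and 16 in Th2 libraries and in 0 and 0 in naive wild-type libraries. Enox1 had 10 of 15, with peaks in 1 and 1 regions in Th1 libraries and in 13 and 14 in Th2 libraries. In KO cells Adamtsl3 had 4 and 3 regions with a peak in Th1 libraries and 15 and 15 in Th2 libraries, and Enox1 had 4 and 1 in Th1 libraries and 13 and 14 in Th2 libraries. Arhgap15, Fhit, Creb5, Sugct, Celf2 and Nfia had 10 to 13 Th2-only regions each, and of these only Nfia had Th1-only regions, 3. With equal lists fewer of these regions kept their class, 5 at Inpp4b, 4 at Tnr, 8 at Adamtsl3, 6 at Enox1, 5 at Arhgap15, 8 at Fhit, 6 at Creb5, 6 at Sugct, 4 at Celf2 and 3 at Nfia.

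Most Th2-only regions stood alone, with 6112 runs of 1 region and 838 of 2, but a few formed long runs with no region of another class between them. Th2-only regions are 12.2% and Th1-only regions 2.57% of all, and the part of this class size in run length was not tested. The longest held 13 regions over 95.8 kb (chr9:81747781-81843595), between Htr1b, a serotonin receptor gene 113949 bp from its first region, and Mei4, a meiosis gene 20075 bp from its last. By the rule of the class Th1 libraries had no peak in any of the 13. Own-list percentiles in Th2 libraries had medians of 66.8 and 58.5. KO Th1 libraries had peaks in 5 and 2 of them, KO Th2 libraries in 13 and 12, and the naive libraries of both genotypes in none. The next longest run held 8 regions (chr1:142923559-143061275), far from any protein-coding gene, Cdc73 being the nearest at 542001 to 679184 bp, with peaks in 4 and 1 of them in KO Th1 libraries and in 8 and 8 in KO Th2 libraries. Of Th1-only regions the longest runs held 3, at Atf6 (chr1:170733368-170776585) and on the side of Cnr1 (chr4:33748858-33795307, 127864 to 174027 bp away), and 75 runs held 2. With equal lists, 10 of the 13 regions of the longest run, 6 of the 8 of the next and 2 of 3 in each Th1 run kept their class.

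The strongest Th2-only region of all lay in Mei4, beyond the run of 13 (chr9:82060201-82060732). Its own-list percentiles were 98.6 and 98.9 in Th2 libraries with no peak in Th1 libraries, 55.7 and 12.7 in KO Th1 libraries and 99.6 and 99.7 in KO Th2 libraries. It had no peak in a naive library. A second region of Mei4 (chr9:81999613-82000117) stood at 93.2 and 96.2 in Th2 libraries. In KO cells it stood at 78.2 and 66.8 in Th1 libraries and 92.2 and 98.7 in Th2 libraries. The others of the top 10 lay at Rimklb, Sfi1, Rasa2, Marchf10, Pom121l12, Iqgap2, Gm38396 and Samsn1, and none of the 10 had a peak in a naive wild-type library. All 10 had a peak in both KO Th2 libraries. Only the region nearest to Pom121l12 had no peak in either KO Th1 library, and that of Rimklb stood there at 90.9 and 73.5.

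The 10 strongest Th1-only regions, named for the nearest gene, lay at Ifng, Manba, Bst1, Pdzd2, Tmem260, Bbs9, Clasp2, Il23r, Dnah3 and Mnd1, with the lower own-list percentile of the 2 Th1 libraries between 83.6 and 92.0. The region in Manba, a lysosomal enzyme gene (chr3:135527670-135528264), stood at 90.02 and 94.4 in Th1 libraries and at 69.3 and 77.5 in KO Th1 libraries, with no peak in a Th2 or naive library. All 10 had a peak in both KO Th1 libraries, and 8 had none in either KO Th2 library. In naive wild-type libraries 5 of the 10 had a peak in both, a pattern that none of the 10 strongest Th2-only regions had. Over the full classes that pattern was found in 33.3% of Th1-only and 19.3% of Th2-only regions, and in 42.9% of all regions.

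Promoter windows were the only sequences to be read here, since no genome was used, so the motifs of distal regions were not analysed. Of 32619 windows 77, of 72 genes, overlapped a Th1-only region and 243, of 230 genes, a Th2-only region. The RUNX motif was found in 27 of the 77 Th1-only windows (35.1%), 36 of the 243 Th2-only windows (14.8%), 11.8% of the 10444 shared windows and 16.6% of all windows. It was also found in 14 of the 45 windows of regions higher in Th2 (31.1%) and in 10.6% of the 320 of regions higher in Th1. The T-box motif was found in 7.79% of Th1-only, 3.29% of Th2-only, 3.08% of shared and 3.98% of all windows, and the first of these is 6 windows.

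The GATA motif (AGATAA) was found in 3.90% of Th1-only, 10.7% of Th2-only, 5.24% of shared and 11.2% of all windows, and the AP-1 motif in 6.49% of Th1-only, 12.8% of Th2-only, 4.79% of shared and 7.85% of all windows. The ETS motif (CCGGAAG), at 21.5% of shared and 8.92% of all windows, was found in 2.60% of Th1-only and 4.12% of Th2-only windows. Windows of both classes had fewer CpG pairs than shared ones, with medians of 12 in Th1-only and 13 in Th2-only windows against 23 in shared and 7 in all windows. Motifs were matched on both strands, windows of a gene with several starts can overlap, and the shares are descriptions without a test.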

How the data were processed

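ATAC-seq libraries of CD4+ T cells (naive, Th1 or Th2) from wild-type and Ets1 super-enhancer knockout mice were deposited as 12 peak lists, and 4 of them carry the comparison. The submitters' processing notes name BWA, Picard, MACS2 and the GRCm38 build, with versions and settings not given in the sources used here. The deposited lists give per peak a score, a fold enrichment, a −log10 p-value and a −log10 q-value, which the authors' peak caller computed for each library separately. These peak values are the authors' own and were used only within a list, to rank or filter its peaks.

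Peaks on chromosomes 1 to 19 and X that overlapped by at least 1 bp were merged over the 4 lists, and presence, ranks of the −log10 q-value and positions against the RefSeq genes and promoters of GRCm38.p6 were computed with Python 3.11.15, numpy 2.4.6, pandas 2.3.3 and scipy 1.17.1, after being tested on simulated lists. Groups came from the sample titles and source names, and the KO Th2 libraries from the source name, since their titles say Th1. The members and the gene lists were chosen with earlier results of these data known. Genes are named where they hold the most Th1-only and Th2-only regions of their list (4 genes) or of all genes (10 in each direction), where they are main Th1 and Th2 genes, and where they lie nearest to the 10 strongest regions, the 10 largest rank gaps in each direction or the 3 longest runs. Defining markers of other cell types were named in addition, and a few genes that the rule selects are not reported here. The nearest gene is by gene body, not by start as first planned, because the promoter table is incomplete. Motifs were read in promoter windows, as no genome was used. The windows of 100 kb and the ranks in KO lists were added after the data were seen. Depth is unknown, so no precision from counting can be given. Alternatives were the length of the lists, a stricter q-value, other overlap, merging, ranking, gap and window settings, and leaving out each library.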

Additional observations from a re-analysis of the deposited data

Results flagged for a closer look

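A small set of regions had opposite classes in the 2 genotypes. KO cells met the Th2-only rule in 31 of the 1779 regions that were Th1-only in wild-type cells (1.74%), and the Th1-only rule in 49 of the 8446 regions that were Th2-only in wild-type cells (0.580%). Among all 69163 regions KO cells met the Th1-only rule in 2.56% and the Th2-only rule in 8.90%. The difference between the genotypes was not tested, and the KO Th2 libraries carry titles that say Th1.

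Peaks outside the chromosomes compared were present in all 4 wild-type lists. On chromosome Y there were 18 and 13 in Th1 libraries and 17 and 16 in Th2 libraries, and on the mitochondrial chromosome 4 in each of the 4 libraries.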

How the results depend on the processing

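The Th1-only and Th2-only counts (1779 and 8446) stayed within 1.5 times with a −log10 q-value of at least 2 (1572 and 7407), when peaks had to cover the larger part of a region (2052 and 9937), with peaks up to 200 bp apart merged and with regions merged from 12 lists. Equal lists gave 3198 and 3855. A gap of 15 points gave 1876 regions higher in Th1 and 2134 in Th2, one of 35 points 285 and 511, and ranking by fold enrichment 617 and 875. With 1 library left out the counts ranged from 2829 to 5936 (Th1-only), 9836 to 16394 (Th2-only), 1746 to 2253 (higher in Th1) and 1923 to 2686 (higher in Th2). With equal lists, Th1-only regions had a peak in 56.86% (KO Th1), 21.62% (KO Th2), 37.41% (KO naive) and 35.12% (wild-type naive) of cases, and Th2-only regions in 9.948% (KO naive) and 10.84% (wild-type naive). Beyond what the construction of an alternative fixes, the cause was not tested.

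No paired analysis was possible because no result comes from a model that could hold a block. Counts within each numbered pair stand in for a replicate block, and the first pair gave 8284 regions in the Th1 direction and 17998 in the Th2 direction, the second pair 5100 and 21810, and both pairs together 1779 and 8446. Counts in gene lists moved by over 1.5 times, or to or from none, in 171 of 440 readings and counts at single genes in 42 of 176. Motif shares had another rule and were read with the central 200 bases of the promoter windows. In 27 of 44 readings the share left the exact binomial interval of the share in the full windows, which is narrow for large sets of windows. The RUNX share was then 23.4% of Th1-only and 11.04% of all windows. Windows of 400 bases were not run. Th2-only regions outnumbered Th1-only ones under every alternative tried. Regions higher in Th2 outnumbered those higher in Th1 with gaps of 15, 25 and 35 points but not with no minimum gap (6617 higher in Th1, 5746 higher in Th2). In gene lists the order of the 2 classes often turned with equal lists, as the values in the text show. Unknown depth limits every absence call.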

Other observations

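The X chromosome had a higher share of Th2-only regions than any of the 19 autosomes, though not a higher number. Of its 1792 regions 35 were Th1-only (1.95%) and 331 Th2-only (18.5%), against 2.59% and 12.05% of autosomal regions and a range of 10.4% to 13.9% Th2-only over the 19 autosomes. Peaks lay in 53.0% and 41.0% of the X regions in Th1 libraries and in 81.7% and 73.3% in Th2 libraries, while autosomal regions had 62.9% and 49.4% in Th1 libraries and 76.5% and 73.3% in Th2 libraries. When the same regions were read with equal lists, 3.52% of X regions were Th1-only and 7.31% Th2-only, against 4.66% and 5.52% of autosomal regions. In KO cells 1.90% of X regions met the Th1-only rule and 11.1% the Th2-only rule, against 2.58% and 8.85% on autosomes.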
